A study of Mus musculus with 24 samples.

Results

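Gene expression in normal mouse lung was compared between 5 lungs labelled FVB mixed for strain (mixed-strain normals) and 5 lungs labelled FVB (FVB normals), 10 of the 24 arrays of the study. The arrays were chosen by title and strain label alone. The labels do not say that they came from separate animals, so the p-values reflect how these arrays vary, and that variation may in part be technical. According to the labels, every one of these lungs came from a littermate that carried no transgene or a single one, and the animals were on doxycycline, the drug that switches the mutant EGFR transgenes on in animals that carry both transgenes. Which of these lungs carried a transgene, and which one, is not stated, nor are the animals' ages, sexes or days of collection. The other 14 arrays were tumour nodules: 4 carried the EGFR change L858R and the label FVB mixed, 5 carried L858R+T790M and 5 carried T790M, both with the label FVB, after 3 to 6 months on the drug. Levels are log2 RMA values of Affymetrix probe sets, differences are log2 values of mixed-strain minus FVB normals ± SE, and arrays are named by their set and replicate number.

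FVB is an inbred strain, so its mice share nearly all of their genome, whereas mice of a mixed background can carry other alleles of a gene in some animals and not in others. Inbred strains differ in the genes of the major histocompatibility complex (MHC), in clusters of zinc finger and interferon-related genes, and in single expressed alleles elsewhere. A lung array reads the average of epithelium, vessels, mesenchyme, blood cells and whatever tissue was cut with the lung, so fewer cells of a type and less RNA per cell cannot be told apart.

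All 10 arrays read as lung. Sftpc, for surfactant protein C of alveolar type 2 cells, lay between 14.66 and 14.79, and Scgb1a1, for the secretory protein of club cells, between 14.60 and 14.77. Correlations between arrays were at least 0.988 among mixed-strain normals, 0.986 among FVB normals and 0.982 across the sets. Principal component 1 (29.1% of the variance) placed the mixed-strain normals at 8.45 to 17.3 and the FVB normals at -22.3 to -7.44. FVB 1 stood apart on component 2 (26.4) and mixed-strain 3 on component 3 (-25.6), and the tissues whose genes were high in each are given at the end. The Y-linked genes marked 3 lungs of each set and Xist marked 2 of each. The difference between 3′ and 5′ control probe sets of Gapdh, which moves with RNA integrity and labelling, was -0.31 to -0.22 in mixed-strain normals and -0.20 to -0.08 in FVB normals (exact permutation p = 0.00794, the smallest that 5 arrays against 5 allow, adjusted p = 0.0318 over 4 such measures). The same measure for Actb overlapped between the sets (exact permutation p = 0.159). The array median was 7.29 to 7.31 in mixed-strain normals and 7.31 to 7.34 in FVB normals (exact permutation p = 0.0159, adjusted p = 0.0318). The level of 18S ribosomal RNA overlapped between the sets (exact permutation p = 0.167).

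Of 18193 genes, 2039 (11.2%) differed between the sets at an adjusted p under 0.05 (limma with Benjamini-Hochberg adjustment), 1248 higher (6.86%) and 791 lower (4.35%) in mixed-strain normals. Most of these differences were small. The median size among called genes was 0.30, with quartiles of 0.23 and 0.41, and 38 genes (0.209%) differed at least 2-fold, 31 higher (0.17%) and 7 lower (0.0385%). For 1892 genes (10.4%) the arrays of the sets did not overlap, 1107 higher (6.08%) and 785 lower (4.31%), and 1503 genes (8.26%) were both called and free of overlap. The split between higher and lower depended on the scale: 61.2% of the calls were higher as deposited, 74.3% after each array was centred on its median and 49.5% after quantile normalization.

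The direction of the calls also moved with the level of the gene. Genes were placed in 3 equal groups by mean level. In the brightest group 754 were called higher and 199 lower, and the median difference was 0.04. The dimmest group had 72 higher and 357 lower calls and a median of -0.07. The part of the Gapdh difference in this pattern was not tested. The count of 2039 became 189 when the spread was shared with the tumours. It fell without mixed-strain 1 (1355), 2 (1210), 4 (1373) or 5 (1148) and rose without mixed-strain 3 (2426). Leaving out any FVB array lowered it as well, to 1754 without FVB 1, 1328 without 2, 1545 without 3, 1193 without 4 and 1323 without 5. Leaving out mixed-strain 3 and FVB 1 together gave 2059 calls, of which 1518 were among the 2039 with the same direction.

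**Figure D1:**
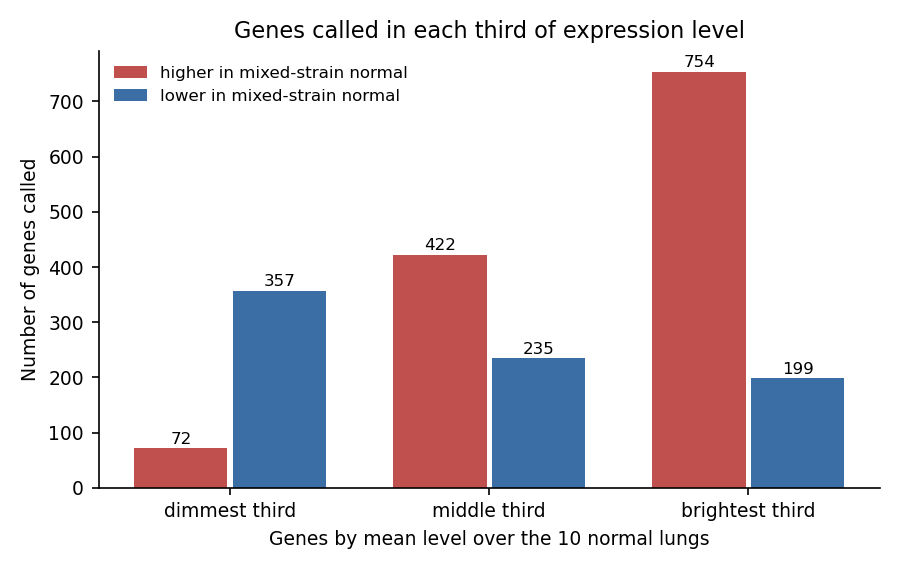
Number of genes called higher (red bars) and lower (blue bars) in mixed-strain normals than in FVB normals, for the dimmest, middle and brightest of 3 equal groups of 18193 genes by mean level over the 10 normal lungs. Lower calls outnumber higher ones among dim genes (72 against 357), and higher calls outnumber lower ones among bright genes (754 against 199).

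Genes of the circadian clock were among the largest differences, in both directions. The clock is a daily feedback loop in nearly every cell, the lung included. CLOCK or NPAS2 pairs with BMAL1, the product of Arntl, and switches on genes that carry E-boxes, among them the period and cryptochrome repressors, the nuclear receptors Nr1d1 and Nr1d2 and the output factors Dbp, Tef and Hlf. NR1D1 and NR1D2 in turn repress Arntl, Npas2 and Nfil3 through ROR elements, so that these arms peak at opposite times of day, and the output factors act on D-boxes. Of 15 genes on the E-box list 7 were called higher in mixed-strain normals and 0 lower, against 6.86% higher over all genes, with a list median of 0.36. Of 7 measured genes on the ROR-element list 3 were called lower and 0 higher, against 4.35% lower over all genes, with a median of -0.20.

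The promoters printed here are of clock genes whose window held an element, 3 of them called (Tef, Arntl, Nfil3) and Per3 not called, in windows that RefSeq places around a gene's start, with matches in capitals (E-box CACGTG in Tef, D-box TTATGTAA in Per3, ROR element TAGGTCA, read TGACCTA on the other strand, in Arntl and Nfil3). The windows come from GRCm38.p6, Tef at chr15:81802423-81802722 on the plus strand, Per3 at chr4:151044616-151044915 on the minus strand, Arntl at chr7:113207261-113207560 on the plus strand and Nfil3 at chr13:52980990-52981289 on the minus strand.
Tef: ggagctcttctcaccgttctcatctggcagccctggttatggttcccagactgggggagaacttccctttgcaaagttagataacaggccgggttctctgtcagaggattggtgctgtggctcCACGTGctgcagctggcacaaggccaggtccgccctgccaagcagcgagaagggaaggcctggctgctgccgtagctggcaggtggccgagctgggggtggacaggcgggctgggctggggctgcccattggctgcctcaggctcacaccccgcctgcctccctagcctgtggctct
Per3: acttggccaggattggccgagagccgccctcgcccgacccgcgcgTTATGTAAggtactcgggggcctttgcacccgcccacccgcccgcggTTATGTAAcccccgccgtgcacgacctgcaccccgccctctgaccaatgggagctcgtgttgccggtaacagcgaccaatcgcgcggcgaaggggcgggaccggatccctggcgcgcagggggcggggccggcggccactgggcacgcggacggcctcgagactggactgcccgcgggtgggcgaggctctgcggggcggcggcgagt
Arntl: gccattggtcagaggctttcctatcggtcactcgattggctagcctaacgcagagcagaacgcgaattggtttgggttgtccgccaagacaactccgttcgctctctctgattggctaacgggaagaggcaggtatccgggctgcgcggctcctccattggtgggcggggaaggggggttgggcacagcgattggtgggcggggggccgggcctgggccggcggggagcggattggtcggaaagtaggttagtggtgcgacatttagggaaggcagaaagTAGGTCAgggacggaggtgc
Nfil3: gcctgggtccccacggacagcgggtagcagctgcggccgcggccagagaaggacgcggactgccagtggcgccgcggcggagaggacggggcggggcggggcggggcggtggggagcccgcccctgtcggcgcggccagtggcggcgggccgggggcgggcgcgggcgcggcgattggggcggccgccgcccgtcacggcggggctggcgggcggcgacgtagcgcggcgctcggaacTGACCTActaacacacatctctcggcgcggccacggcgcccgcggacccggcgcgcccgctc
Both strands of the windows were searched for CACGTG, for TTATGTAA or TTACGTAA, and for TAGGTCA or TGGGTCA. E-boxes stood in 7.15% of all 32851 windows, the D-boxes in 1.06% and the ROR elements in 6.45%. Counted per gene over 27025 genes, the shares were 8.09%, 1.23% and 7.35%. Tef and Arntl had 2 windows each, and the window with the most matches is printed. Among E-box list genes with a window, 5 of 12 held an E-box (Per1, Cry1, Tef, Ciart and Bhlhe41) and 1 held a D-box, Per3, with 2 copies. Of the genes with an E-box only Tef was called by its brightest probe set, and Per1, Cry1, Ciart and Bhlhe41 were not. Among ROR-element list genes with a window, Arntl and Nfil3, 2 of 7, held a ROR element. The windows of Nr1d1, Dbp, Hlf, Nr1d2, Cry2 and Npas2 held none of these letters.

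Nr1d1, which encodes the repressor REV-ERB alpha, had levels of 10.67, 10.16, 10.40, 10.46 and 10.92 in mixed-strain normals 1 to 5, against 9.38, 8.34, 8.60, 8.24 and 9.62 in FVB normals 1 to 5. FVB 1 and 5 were the highest of the FVB lungs and still lay below every mixed-strain lung, and the difference was 1.69 ± 0.26 (adjusted p = 0.00574). Dbp, an output activator, read 11.79, 11.69, 11.32, 11.30 and 11.83 in mixed-strain normals, against 9.94, 8.93, 9.89, 9.43 and 10.85 in FVB normals, a difference of 1.78 ± 0.29 (adjusted p = 0.00657). The sets did not overlap, and FVB 5 came nearest to the mixed-strain lungs, as it did for Nr1d1. Tef, the relative of Dbp whose E-box is printed above, was higher by 0.54 ± 0.09 (adjusted p = 0.00643), and Cry2, a repressor, by 0.46 ± 0.07 (adjusted p = 0.00584). Bhlhe40, a repressor that competes for E-boxes, was higher by 0.36 ± 0.07 (adjusted p = 0.0114). Nr1d2 (0.54 ± 0.14, adjusted p = 0.0309) and Hlf (0.70 ± 0.19, adjusted p = 0.0401) were called with overlapping arrays.

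The opposite arm was lower. Arntl, for the activator BMAL1, read 7.67, 7.13, 7.95, 7.83 and 7.84 in mixed-strain normals, against 8.66, 9.13, 8.56, 8.55 and 8.40 in FVB normals. Every mixed-strain lung lay below every FVB lung, and the difference was -0.98 ± 0.17 (adjusted p = 0.00756), with both probe sets called. Nfil3, a repressor of D-box genes, read 6.44, 6.58, 6.43, 6.85 and 6.5 in mixed-strain normals, against 7.13, 7.79, 7.47, 7.47 and 7.33 in FVB normals, a difference of -0.88 ± 0.12 (adjusted p = 0.00389). Npas2, the partner that can stand in for CLOCK, differed by -0.90 ± 0.24 (adjusted p = 0.0387), and here FVB 5 (6.35) fell within the mixed-strain range of 5.97 to 6.52.

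Several other clock genes were not called. Per1 differed by 0.01 ± 0.17 (adjusted p = 0.970), Per2 by 0.21 ± 0.23 (adjusted p = 0.556) and Cry1 by -0.51 ± 0.28 (adjusted p = 0.232). Cry1 read 7.59 in FVB 1 and 7.41 in FVB 5 but 8.58 to 8.64 in the other FVB lungs, so the FVB lungs varied among themselves in the gene. Per3, whose promoter holds 2 D-boxes, was higher by 0.64 ± 0.19 with no overlap but did not pass the threshold by its brightest probe set (adjusted p = 0.05). All 6 of its probe sets passed when every probe set was tested (adjusted p from 0.00883 to 0.0416), and the median over them was called (0.71, adjusted p = 0.0156). Clock itself differed by -0.10 ± 0.09 by its brightest probe set (adjusted p = 0.497), but 2 of its 4 probe sets were called lower (-0.39 and -0.46, adjusted p = 0.00454 and 0.00791), as was the median over them (-0.26, adjusted p = 0.0335). Among the tumours, L858R minus the others, Nr1d1 differed by 0.00 (adjusted p = 0.999), Dbp by -0.67 (adjusted p = 0.697) and Arntl by 0.42 (adjusted p = 0.636). The time of day at which each lung was taken is not in the labels, and its part in these differences was not tested.

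Of the clock calls, 3 were lost when 1 array was left out, for several choices of that array. Nr1d2 was not called without mixed-strain 1, 2 or 4 or FVB 4 (adjusted p up to 0.0681), Hlf without mixed-strain 1, 2 or 4 or FVB 1, 2 or 5 (adjusted p up to 0.0841), and Npas2 without mixed-strain 1, 2, 4 or 5 or FVB 2, 3 or 4 (adjusted p up to 0.0823). The direction was kept each time, and without mixed-strain 3 and FVB 1 together Nr1d1 differed by 1.85 (adjusted p = 0.0118) and Arntl by -1.04 (adjusted p = 0.0165).

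**Figure D2:**
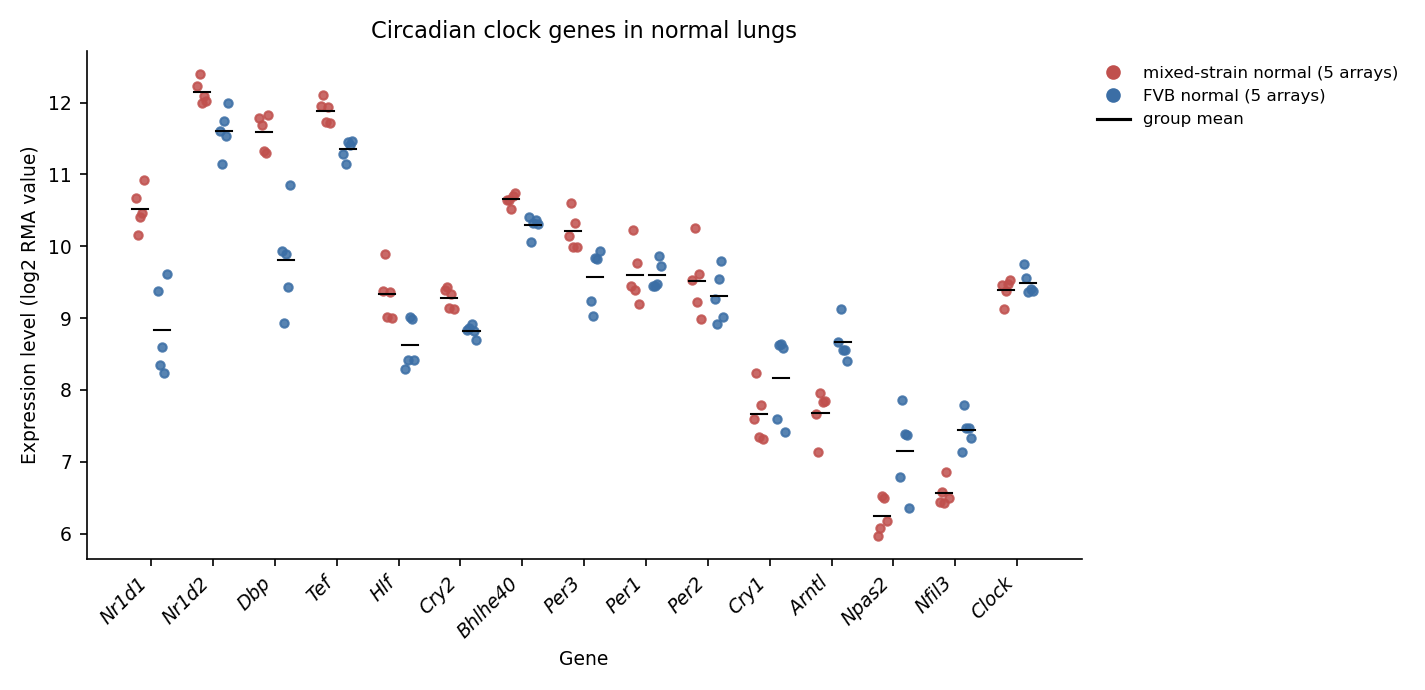
Levels (log2 RMA value) of 15 clock genes in 5 mixed-strain normals (red points) and 5 FVB normals (blue points), with the group mean as a line. Nr1d1, Dbp, Tef, Cry2, Bhlhe40 and Per3 lie higher in all mixed-strain lungs, Arntl and Nfil3 lower, and Per1, Per2, Cry1 and Clock overlap.

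Some markers of lung mesenchyme, its matrix and alveolar type 1 cells were called higher in mixed-strain normals, and none lower. Fibroblasts lay down fibrillar collagens, fibronectin and the growth factor binding proteins held in the matrix, and the alveolar type 1 cell is the thin cell across which gas passes. Of 14 fibroblast markers 7 were called higher and 0 lower (list median 0.61), of 19 measured collagen and matrix genes 6 higher and 0 lower (median 0.33), and of 12 alveolar type 1 markers 4 higher and 0 lower (median 0.42), against 6.86% higher and a median of -0.02 over all genes. The fibroblast and matrix counts share Col1a1, Col1a2 and Fn1, so they are not separate. Bright genes were called higher more often in general.

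Among the genes of largest difference, on neither the fibroblast nor the matrix list, were several secreted or mesenchymal ones. Igfbp3, a carrier and inhibitor of insulin-like growth factors, had one of the largest differences. It read 10.83, 10.63, 10.36, 9.88 and 11.05 in mixed-strain normals, against 8.16, 9.38, 8.85, 8.91 and 7.99 in FVB normals, a difference of 1.89 ± 0.28 (3.71-fold, adjusted p = 0.00489). FVB 5 and FVB 1 were the lowest. Col1a1, a chain of collagen I, read 10.29, 9.85, 11.21, 10.77 and 11.46 in mixed-strain normals, against 9.60, 9.47, 9.52, 9.36 and 8.72 in FVB normals, a difference of 1.38 ± 0.29 (adjusted p = 0.0149), but its dimmer probe set was not called (0.68 ± 0.34). The matrix protease Mmp2 was higher by 1.20 ± 0.17 (adjusted p = 0.00421), with 11.07 to 11.79 in mixed-strain normals and 9.72 to 10.54 in FVB normals. FVB 5 was again the lowest lung.

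Further genes among the largest differences on neither list, without overlap between the sets, were Sod3, Meox2, Olfml3, Olfml1 and Sfrp2. Sod3, the extracellular superoxide dismutase, was higher by 1.20 ± 0.24 (adjusted p = 0.0144), and Meox2, a homeobox gene of mesenchyme, by 1.20 ± 0.24 (adjusted p = 0.0136). The secreted olfactomedin-like genes Olfml3 and Olfml1 were each higher by 1.17 (adjusted p = 0.00395 and 0.00296), and Sfrp2, an antagonist of WNT ligands, by 1.15 ± 0.22 (adjusted p = 0.0109). Of list members, the collagen VI chains Col6a1 (0.62 ± 0.12) and Col6a2 (0.83 ± 0.13), Col1a2 of collagen I (0.70 ± 0.15) and Npnt, a basement membrane ligand of integrins (0.85 ± 0.16), were called without overlap, with adjusted p from 0.00566 to 0.0185. Fibronectin, Fn1, was higher by 0.55 ± 0.13 with overlap (adjusted p = 0.0229), a call lost without FVB 5 (adjusted p = 0.0502). The collagen gene Col13a1 (0.76 ± 0.19, adjusted p = 0.0314) and Tcf21, a mesenchymal transcription factor (0.71 ± 0.20, adjusted p = 0.0434), were called with overlap as well. Tcf21 lost the call without mixed-strain 1, 2, 4 or 5 or FVB 1, 4 or 5 (adjusted p up to 0.0889) and Col13a1 without mixed-strain 1, 2 or 5 or FVB 1 or 4 (adjusted p up to 0.0659).

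The group was not uniform. Dcn, for the proteoglycan decorin, differed by 0.09 ± 0.14 (adjusted p = 0.685) and Pdgfra, a receptor of lung fibroblasts, by 0.39 ± 0.23 (adjusted p = 0.263). The mean level over the fibroblast list was 11.80 to 11.91 in mixed-strain normals and 10.95 to 11.54 in FVB normals, and over the collagen and matrix list 10.55 to 10.96 in mixed-strain normals and 9.96 to 10.53 in FVB normals, in both with FVB 5 lowest. The fibroblast count was 4 without any 1 of mixed-strain 1 or 2 or FVB 1, 4 or 5, and also without mixed-strain 3 and FVB 1 together.

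Among alveolar type 1 markers, Pdpn, for podoplanin, read 12.39, 12.36, 12.17, 12.39 and 12.30 in mixed-strain normals, against 11.68, 11.58, 12.07, 10.91 and 11.30 in FVB normals, a difference of 0.81 ± 0.17 (adjusted p = 0.0158). FVB 3 came nearest to the mixed-strain lungs. The chloride channel gene Clic5 was higher by 0.48 ± 0.09 (adjusted p = 0.0133) with all 4 probe sets called. The calls of Emp2 (0.29 ± 0.07, adjusted p = 0.0256) and the caveolin gene Cav1 (0.13 ± 0.04, adjusted p = 0.0382) were small by their brightest probe sets. The other Emp2 probe sets differed by 0.70 and 0.53 (adjusted p = 0.00133 and 0.00518). By its brightest probe set Emp2 lost its call without mixed-strain 1, 2, 4 or 5 or FVB 4 or 5 (adjusted p up to 0.0577), and Cav1 without mixed-strain 1, 2, 3 or 5 or FVB 1, 2, 4 or 5 (adjusted p up to 0.0845). The alveolar type 1 count was 2 without any 1 of mixed-strain 1, 2 or 5 or FVB 4 or 5, and 6 without FVB 3. Of 14 alveolar type 2 markers 2 were called higher and 0 lower, against 6.86% higher over all genes. The list median was -0.04, with 8 differences below 0. The called ones were Etv5 and Nkx2-1. Nkx2-1, the master transcription factor of lung epithelium, was higher by 0.70 ± 0.11 (adjusted p = 0.00574), with 7.71 to 8.17 in mixed-strain normals and 7.01 to 7.50 in FVB normals. By the same limma test the club cell list had 0 calls of 12 genes (1 at an unadjusted p under 0.05), the ciliated cell list 0 of 12 (2 unadjusted) and the endothelial list 0 of 20 (5 unadjusted).

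**Figure D3:**
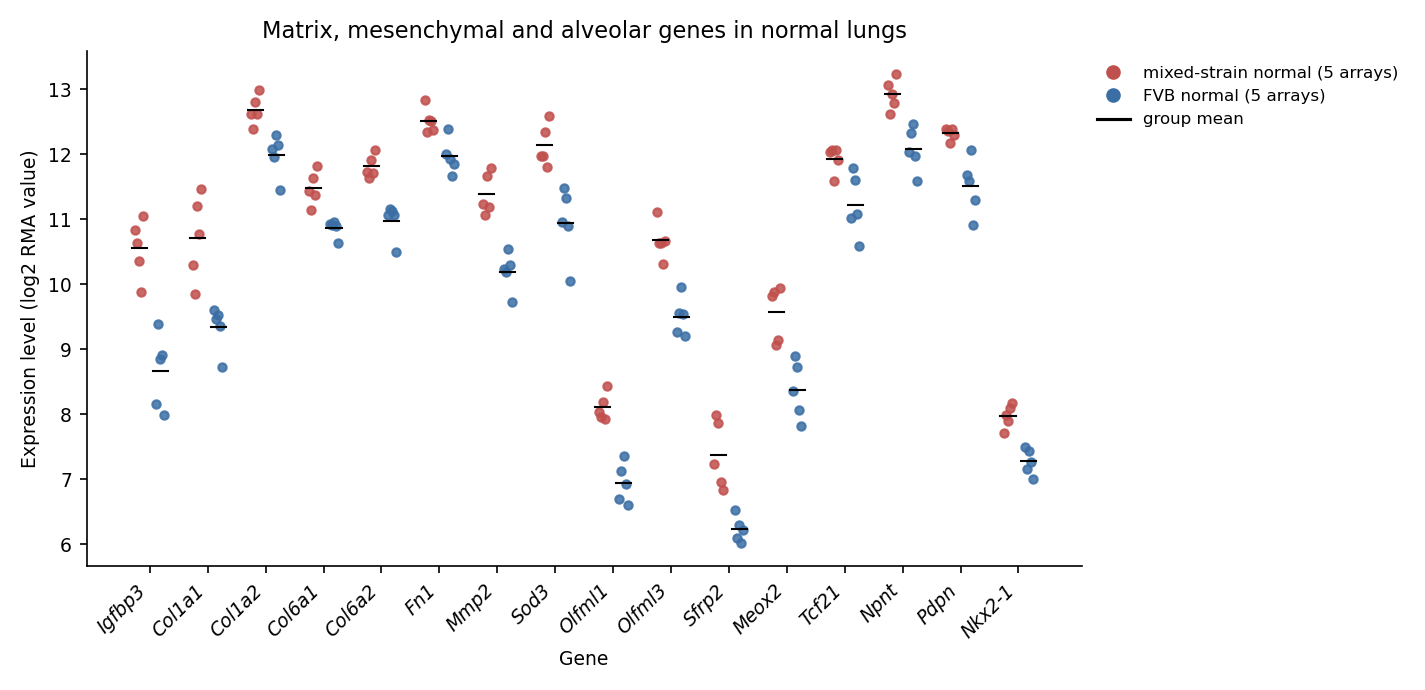
Levels (log2 RMA value) of matrix, mesenchymal and alveolar genes in 5 mixed-strain normals (red points) and 5 FVB normals (blue points), with the group mean as a line. The red means lie above the blue means for all genes plotted. For Fn1 and Tcf21 the points overlap.

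The largest difference of all was in H2-Eb1, the beta chain of the MHC class II molecule I-E, which presents peptides to helper T cells. It read 11.91, 12.47, 12.27 and 12.29 in mixed-strain normals 1 to 4 and 9 in mixed-strain 5, against 8.41, 8.62, 8.81, 8.64 and 9.29 in FVB normals. Mixed-strain 5 thus lay within the FVB range and the other 4 lay far above it, and the mean difference was 2.83 ± 0.57 (7.13-fold, adjusted p = 0.0138, 1 probe set). D17H6S56E-5, another gene of chromosome 17 with 32 measured genes between, showed the same pattern, with 9.51, 9.90, 9.19 and 9.18 in mixed-strain 1 to 4 and 7.57 in mixed-strain 5, against 7.82 to 8.03 in FVB normals. By its brightest probe set D17H6S56E-5 differed by 1.18 ± 0.34 (adjusted p = 0.0472). That call was lost in 9 of the 10 fits that left out 1 array, all but the one without mixed-strain 5 (adjusted p up to 0.0945). Its other probe set differed by 2.22 ± 0.40 (adjusted p = 0.0072 when every probe set was tested). The median over its probe sets was called (1.7, adjusted p = 0.0187). Of the other class II genes, H2-Aa differed by -0.33 ± 0.25 by its brightest probe set (adjusted p = 0.396), but its other probe sets differed by 0.19, 0.80 and 1.46, of which that at 0.80 was called (adjusted p = 0.0415), so its direction is not settled. By the brightest probe set H2-Ab1 differed by -0.05 ± 0.15 (adjusted p = 0.843). H2-Eb1 was the only 1 of 10 measured class II genes that was called, near the share of 11.2% called over all genes.

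The tumours carry the same strain labels and share no array with the normal lungs, so the genes can be looked up there, although among tumours the strain label and the transgene cannot be told apart. H2-Eb1 read 11.09, 12.30, 11.94 and 12.15 in L858R tumours, against 9.42 to 9.82 in L858R+T790M tumours and 10.13 to 11.15 in T790M tumours. L858R tumours were higher than the mean of the other tumours by 1.76 ± 0.21 (adjusted p = 0.00146), and only L858R 1 overlapped the T790M tumours. In that contrast 82 genes (0.451%) were called, and 24 of them were also called between the normal lungs in the same direction and 0 in the opposite one, which is 29.3% of the tumour calls and 1.18% of the calls between normal lungs. Of the genes called between normal lungs 69.2% had the same sign in the tumours, against 59.8% of all genes. The count of 24 was 14 without mixed-strain 4 and 12 without FVB 4.

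Gprc5a, which encodes an orphan receptor of lung epithelium that mice need to hold back lung tumours, was among the 24. It read 11.87, 12.00, 11.90, 11.96 and 12.14 in mixed-strain normals, against 10.65, 10.37, 10.64, 10.12 and 10.11 in FVB normals, a difference of 1.60 ± 0.11 (3.02-fold, adjusted p = 6.57e-05). The levels in all 4 L858R tumours, 11.61 to 12.24, lay above those in all other tumours, 9.52 to 11.21. Cdkn1b, for the cell cycle inhibitor p27, lies on the same chromosome 6 with 3 measured genes between, and it was higher by 0.94 ± 0.07 in mixed-strain normals (adjusted p = 6.57e-05) and by 1.04 ± 0.16 in L858R tumours (adjusted p = 0.0107). Its dimmer probe set, at about 5 in both sets, was not called. Other members were Pcdhb9, a clustered protocadherin (1.74 ± 0.39 in normal lungs, 1.24 ± 0.17 in tumours), the growth factor gene Fgf1 (0.97 ± 0.21 and 0.56 ± 0.09), Ndufs5 of respiratory complex I (0.60 ± 0.14 and 1.13 ± 0.16) and the kallikrein gene Klk1b27 (-0.80 ± 0.16 and -0.38 ± 0.07). Pcdhb9 was not uniform among mixed-strain normals. A gap of at least 1 split their arrays, and the lower side lay within 0.5 of the FVB range. Ndufs5 lost the call between normal lungs without mixed-strain 2 or 4 or FVB 4 (adjusted p up to 0.0525). For Sema3f, a semaphorin gene also among the 24 (-0.25 ± 0.06 in normal lungs, not called without mixed-strain 2, 4 or 5 or FVB 4, adjusted p up to 0.0573), the median over its probe sets had the opposite sign and was called (0.32, adjusted p = 0.0167).

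Zfp874a had the lowest adjusted p of all genes, and its difference did not recur in the tumours. This zinc finger gene of chromosome 13 read 7.06, 6.86, 6.98, 7.04 and 6.92 in mixed-strain normals, against 5.65, 5.67, 5.74, 5.59 and 5.58 in FVB normals, a difference of 1.33 ± 0.06 (adjusted p = 1.07e-06). The L858R tumours, at 5.52, 5.55, 5.61 and 5.83, lay at the FVB level, and the difference between the 2 contrasts was 1.34 ± 0.09 (adjusted p = 6.93e-09). Rsl1, a zinc finger repressor of sex-dependent liver genes on the same chromosome with 5 measured genes between, was higher by 0.98 ± 0.06 in mixed-strain normals (7.38 to 7.59, against 6.33 to 6.55; adjusted p = 3.81e-05). In L858R tumours it read 6.04 to 6.87, against 5.78 to 6.59 in the other tumours, and the difference between the contrasts was not called (0.84 ± 0.20, adjusted p = 0.0852). Over all genes 32 (0.176%) passed that test of the difference. Among genes whose symbol starts with Zfp, 18 of 336 were called higher and 16 lower, both near the share over all genes.

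Several genes were high in some mixed-strain lungs and low in others, and most of those named here were not called by the comparison of means. A search for genes with a gap of at least 1 between the arrays of a set, while the other set spanned at most 1, found 138 genes split among mixed-strain normals and 95 among FVB normals. Nxpe4, a neurexophilin family gene, read 8.96, 9.75 and 9.26 in mixed-strain 1, 2 and 4 and 5.30 and 5.33 in mixed-strain 3 and 5, against 5.14 to 5.45 in FVB normals. Cd200r4, a myeloid receptor gene, split the same way, with 7.26, 7.42 and 6.41 in mixed-strain 1, 2 and 4 and 4.57 and 4.47 in mixed-strain 3 and 5, against 4.55 to 4.70 in FVB normals. Ms4a4b of T cells (7.74, 8.18 and 8.22 in mixed-strain 1, 2 and 4, 4.35 and 4.50 in mixed-strain 3 and 5, against 4.40 to 4.57 in FVB normals) followed the same 3 lungs. Without mixed-strain 3 and FVB 1, Nxpe4 (2.99, adjusted p = 0.0462) and Ms4a4b (2.66, adjusted p = 0.0445) were called. That fit was chosen after seeing the data, and mixed-strain 3 is a low lung for both genes, so leaving it out raises their differences by construction. The heart muscle genes Myh6 (1.08, adjusted p = 0.0487) and Ttn (1.29, adjusted p = 0.0299) were called in it too. Mixed-strain 1, 2 and 4 set apart 15 genes, of which Ryr2, Tnnc1, Myh6, Ttn, Lmod2 and Mylk3 are genes of heart muscle. The part of that tissue in the other genes was not tested. Trim34a, Trim5 and Trim30d, interferon-related genes of a cluster on chromosome 7, were high in mixed-strain 1 and 2 alone. Trim34a read 9.11 and 9.25 there and 6.38 to 6.98 in mixed-strain 3, 4 and 5, against 6.64 to 6.87 in FVB normals. These levels are of its brightest probe set. The mean difference of its other probe set had the opposite sign and was not called (-0.16, adjusted p = 0.484 when every probe set was tested).

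Some of these split genes differed between the tumours too. Nxpe4 read 6.90 to 7.60 in L858R tumours and 5.05 to 5.46 in the other tumours (2.06, adjusted p = 1.87e-07), Cd200r4 8.84 to 9.95 and 4.41 to 5.10 (4.50, adjusted p = 5.38e-09) and Trim34a 8.36 to 8.86 and 6.52 to 7.17 (1.71, adjusted p = 1.32e-05). For Cd200r4 the difference in normal lungs minus that in tumours was -3.10 (adjusted p = 0.0272). Of the 60 genes split among mixed-strain lungs in any way other than mixed-strain 3 alone, 11 (18.3%) were called in the tumours in the same direction, against 0.451% called over all genes in the tumour contrast. Of the 78 genes in which only mixed-strain 3 stood apart, 1 (1.28%) was, and of the genes split among FVB lungs, 0 of 73 with only FVB 1 apart and 0 of the other 22 were. The gap and the margins of the search were chosen with these values known, so the counts are a description.

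**Figure D4:**
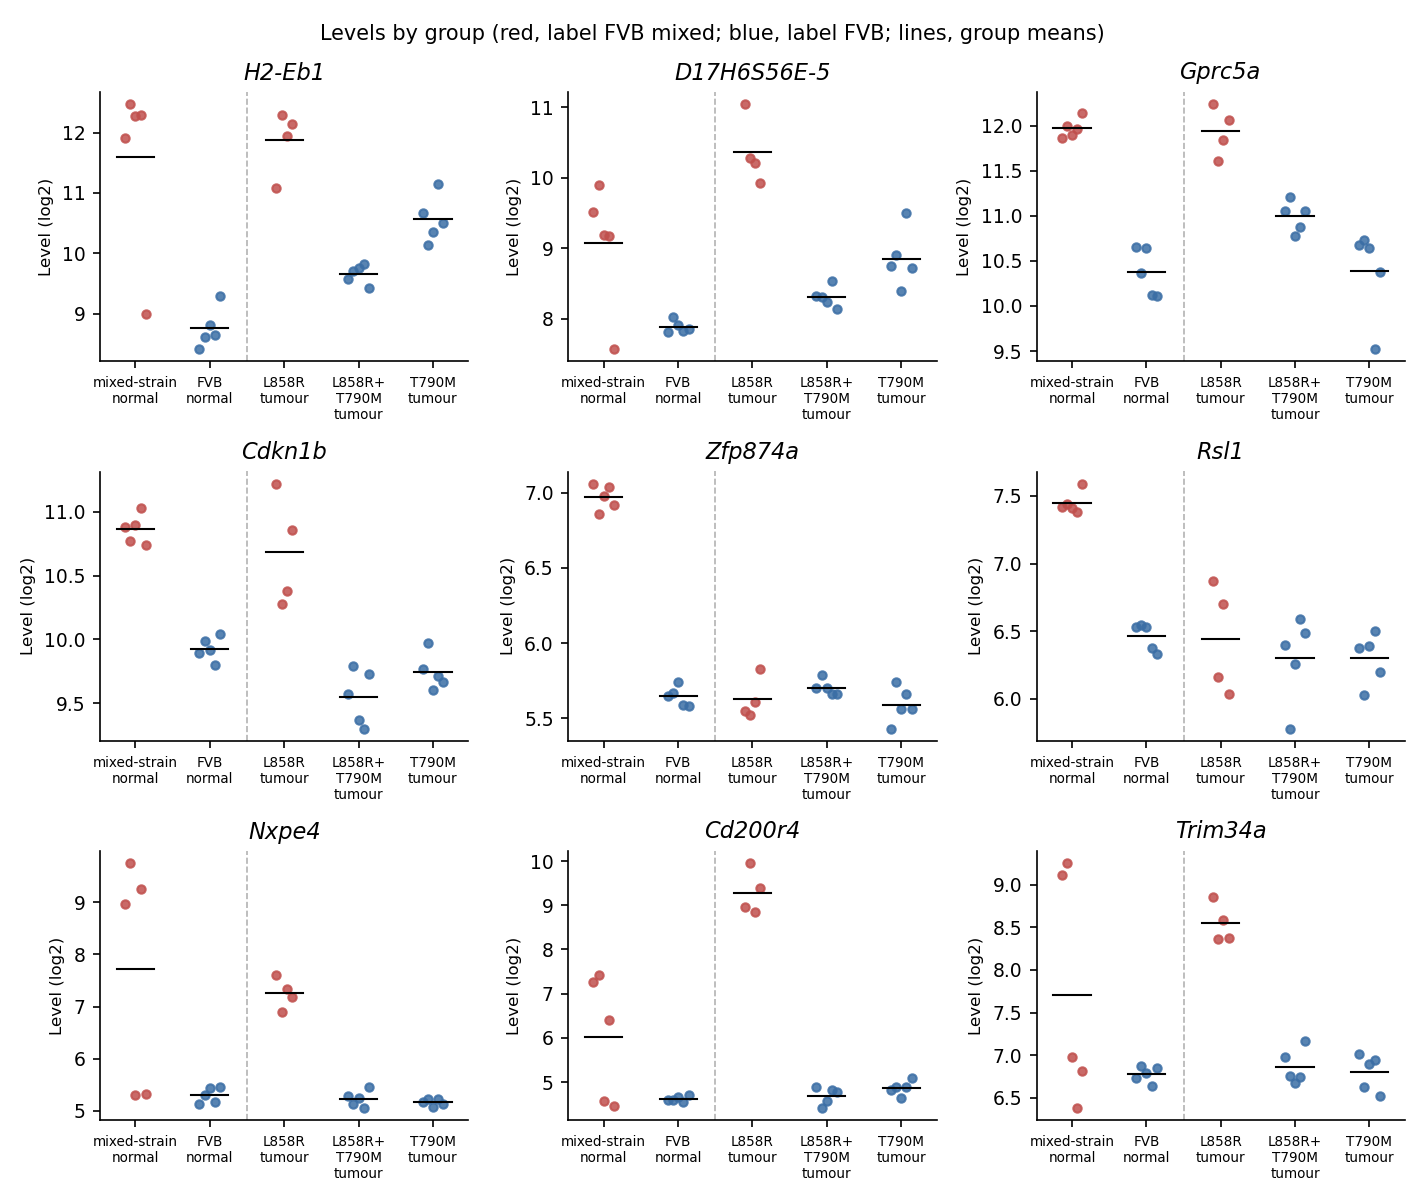
Levels (log2 RMA value) of 9 genes in mixed-strain normals, FVB normals, L858R, L858R+T790M and T790M tumours. Points are arrays, lines are group means, and red marks the label FVB mixed and blue the label FVB. Mixed-strain 5 lies at the FVB level for H2-Eb1 (9) and D17H6S56E-5 (7.57), the mixed-strain lungs split for Nxpe4, Cd200r4 and Trim34a, and L858R tumours lie at the FVB level for Zfp874a.

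Among the genes lower in mixed-strain normals were receptors of blood cells. Ccr9, a chemokine receptor that guides lymphocytes to the gut, read 5.91, 5.73, 6.45, 5.98 and 6.32 in mixed-strain normals, against 6.49, 7.68, 7.47, 7.17 and 7.85 in FVB normals, a difference of -1.25 ± 0.24 (adjusted p = 0.0107). FVB 1 was the lowest of its set, and 2 of 5 probe sets of Ccr9 were called. Il6ra, the receptor of interleukin 6, differed by -0.92 ± 0.10 (adjusted p = 0.00177), with 9.33 to 9.83 in mixed-strain normals and 10.19 to 10.48 in FVB normals. Its dimmer probe set was not called (-0.15, adjusted p = 0.114), but the median over both was (-0.53, adjusted p = 0.00339). Gpr171, an orphan receptor of lymphocytes, differed by -0.87 ± 0.18 (adjusted p = 0.0142). Klra17, a Ly49 receptor gene, differed by -1.25 ± 0.33 (adjusted p = 0.0363). Its levels of 8.10 in FVB 2 and 7.88 in FVB 5 stood above 6.21 to 6.66 in the other FVB lungs and 5.64 to 5.98 in mixed-strain normals, and the call was lost without mixed-strain 1, 2, 4 or 5 or FVB 2 or 5 (adjusted p up to 0.0732). Siglech, a marker of plasmacytoid dendritic cells, was lower by 0.58 (-0.58 ± 0.11, adjusted p = 0.0123).

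FVB 2 and 5 also had higher levels of genes typical of neutrophils, the granulocytes that enter inflamed lung. Il1b, for interleukin 1 beta, read 10.53 in FVB 2 and 10.70 in FVB 5, 8.34 to 8.81 in the other FVB lungs and 7.89 to 8.59 in mixed-strain normals. Csf3r, the receptor for granulocyte colony-stimulating factor, read 10.57 and 10.27 in FVB 2 and 5 and 8.15 to 8.57 in FVB 1, 3 and 4, and Cxcr2, a chemokine receptor of neutrophils, read 8.60 and 8.54 against 6.76 to 7.02. None of these genes was called between the sets (adjusted p from 0.132 to 0.323). The mean level over the 10 measured neutrophil markers was 7.98 to 8.44 in mixed-strain normals and 8.09 to 10.11 in FVB normals, highest in FVB 5 (10.11) and FVB 2 (9.89), and all 10 had differences below 0. Of these, 2 were called lower, against 4.35% lower over all genes. They were the granule genes Camp (-0.32 ± 0.07, adjusted p = 0.0198) and Ngp (-0.57 ± 0.15, adjusted p = 0.0386). Ngp lost the call without mixed-strain 1, 2, 4 or 5 or FVB 1 or 3 (adjusted p up to 0.0835). The part of neutrophils in the lower genes was not tested. The T cell list had 0 calls of 9 by the same limma test, but 6 of its genes had an unadjusted p under 0.05, and its median was -0.23. The NK and cytotoxic cell and B cell lists had 0 calls of 9 each (1 unadjusted each), the alveolar macrophage list 0 of 11 (2 unadjusted) and the monocyte list 0 of 11 (1 unadjusted).

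Other lower genes of large size were of varied function. Slc15a2, a peptide transporter of airway and alveolar epithelium, read 9.24, 8.97, 9.19, 9.68 and 8.78 in mixed-strain normals, against 10.67, 10.44, 10.23, 10.33 and 10.45 in FVB normals. Its sets were more than 0.5 apart, and the difference was -1.25 ± 0.15 (adjusted p = 0.00192). Its other probe sets were not called (-0.81 and -1.29, adjusted p = 0.0588 and 0.0886), nor was the median over its probe sets (-0.86, adjusted p = 0.0613). Among the tumours the difference was opposite in sign (0.68 ± 0.26, adjusted p = 0.246), and the difference between the contrasts was -1.93 (adjusted p = 0.0201). Acot1, a thioesterase of fatty acyl-CoA, differed by -1.02 ± 0.18 (adjusted p = 0.00822), Bdkrb2, the bradykinin B2 receptor, by -0.88 ± 0.19 (adjusted p = 0.0192), Pde4b, a phosphodiesterase that degrades cyclic AMP, by -0.81 ± 0.14 (adjusted p = 0.00795) and Pi4k2b, a phosphatidylinositol kinase, by -0.81 ± 0.13 (adjusted p = 0.00572). Raly, which binds RNA, differed by -0.71 ± 0.10 (adjusted p = 0.00502) and Bex1 of the X chromosome by -0.76 ± 0.19 (adjusted p = 0.0287), a call that Bex1 lost without mixed-strain 4 or FVB 3 or 4 (adjusted p up to 0.0663).

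Stress and hormone genes gave a small number of calls. Of 15 glucocorticoid response genes 3 were called lower and 0 higher, against 4.35% lower over all genes: Ddit4, an inhibitor of mTOR signalling (-0.69 ± 0.15, adjusted p = 0.0170), Cdkn1a, for the cell cycle inhibitor p21 (-0.70 ± 0.13, adjusted p = 0.0122), and the phosphatase gene Dusp1 (-0.64 ± 0.16, adjusted p = 0.0285). Dusp1 lost its call without mixed-strain 1 or 5 or FVB 3 or 5 (adjusted p up to 0.0644). Fkbp5, a glucocorticoid target used as its readout in many tissues, differed by -0.13 ± 0.22 (adjusted p = 0.728). Pfkfb3, which sets the rate of glycolysis, was among the most regular differences, with 9.39 to 9.55 in mixed-strain normals and 8.59 to 8.76 in FVB normals (0.77 ± 0.05, adjusted p = 3.81e-05). Vegfa, the endothelial growth factor (0.40 ± 0.08, adjusted p = 0.0154), and the EGFR ligand gene Hbegf (0.63 ± 0.12, adjusted p = 0.00995) were higher too.

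Egfr, the gene whose mutant form was the transgene in the tumours, differed by 0.00 ± 0.06 by its brightest probe set (adjusted p = 0.972). It read 9 to 9.24 in mixed-strain normals and 9 to 9.20 in FVB normals. Of its other probe sets 1 was called lower (-0.25 ± 0.05, adjusted p = 0.0153 when every probe set was tested). The median over its probe sets was not called (adjusted p = 0.986). Hamp, the iron hormone hepcidin, was higher by 1.17 ± 0.29 (adjusted p = 0.0270), with its highest level of 9.67 in mixed-strain 3, and was not called without mixed-strain 2 or FVB 2, 3 or 4 (adjusted p up to 0.0616). Plekha6 was higher by 1.15 ± 0.14 (adjusted p = 0.00218). Of 19 measured interferon response genes 2 were called higher, Ifit2 (0.61 ± 0.11, adjusted p = 0.0106) and Ifit3 (0.71 ± 0.16, adjusted p = 0.0188), and 1 lower, Mx2 (-0.23 ± 0.05, adjusted p = 0.0170), against 6.86% higher and 4.35% lower over all genes. Of 35 measured genes known to vary between inbred strains 0 were called higher, against 6.86% over all genes. Lower were 2, Mx2 and Wdfy1 (-0.33 ± 0.07, adjusted p = 0.0170), near the 4.35% over all genes. Only the brightest probe set of Wdfy1 was called, and the median over its probe sets was not (-0.27, adjusted p = 0.0729). Among the 35 genes Nnt, whose deletion marks C57BL/6J mice, differed by -0.18 ± 0.10 (adjusted p = 0.259), and Hc, for complement component 5, by -0.08 ± 0.25 (adjusted p = 0.865).

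Called genes were spread over the chromosomes. From 8.84% of the genes on chromosome 15 to 13.4% on chromosome 13 were called, and 23.1% of called genes had a called nearest neighbour, against 21.1% of all 18030 placed genes. The 134 stretches of at least 3 called genes had at most 7 members, and the 3 longest mixed higher and lower calls.

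Genes typical of other tissues were high in single lungs. Alb, for the liver protein albumin, read 12.54 in mixed-strain 3, 6.57 to 6.84 in the other mixed-strain lungs and 6.34 to 7.13 in FVB normals. The mean level over 16 liver genes was 9.70 in mixed-strain 3 and at most 6.19 in the others of its set, against 6.27 to 6.32 in FVB normals. Krt4, a keratin of the oesophagus, read 13.34 in FVB 1, 6.79 to 6.96 in the other FVB lungs and 6.62 to 6.82 in mixed-strain normals. The mean over 14 genes of cornified squamous epithelium was 11.10 in FVB 1 and at most 6.80 in the others of its set, against 6.53 to 6.63 in mixed-strain normals, and the skeletal muscle gene Mylpf, at 10.03, was high in the same lung. In mixed-strain 4 Agr2 of mucous cells (8.45) and the chitinase-like gene Chil4 (9.94) stood above 5.44 to 5.79 and 6.35 to 6.57 in the others of its set. Myh6, a myosin of heart muscle and pulmonary veins, read 12.40, 12.36 and 12.10 in mixed-strain 1, 2 and 4 and 10.62 and 10.86 in mixed-strain 3 and 5, against 10.41 to 10.99 in FVB normals, and the giant sarcomere gene Ttn split the same way. The liver, squamous and mucous lists were chosen after these values were seen, and 0 of their 16, 14 and 10 genes were called between the sets by limma, with 0, 0 and 1 at an unadjusted p under 0.05.

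**Figure D5:**
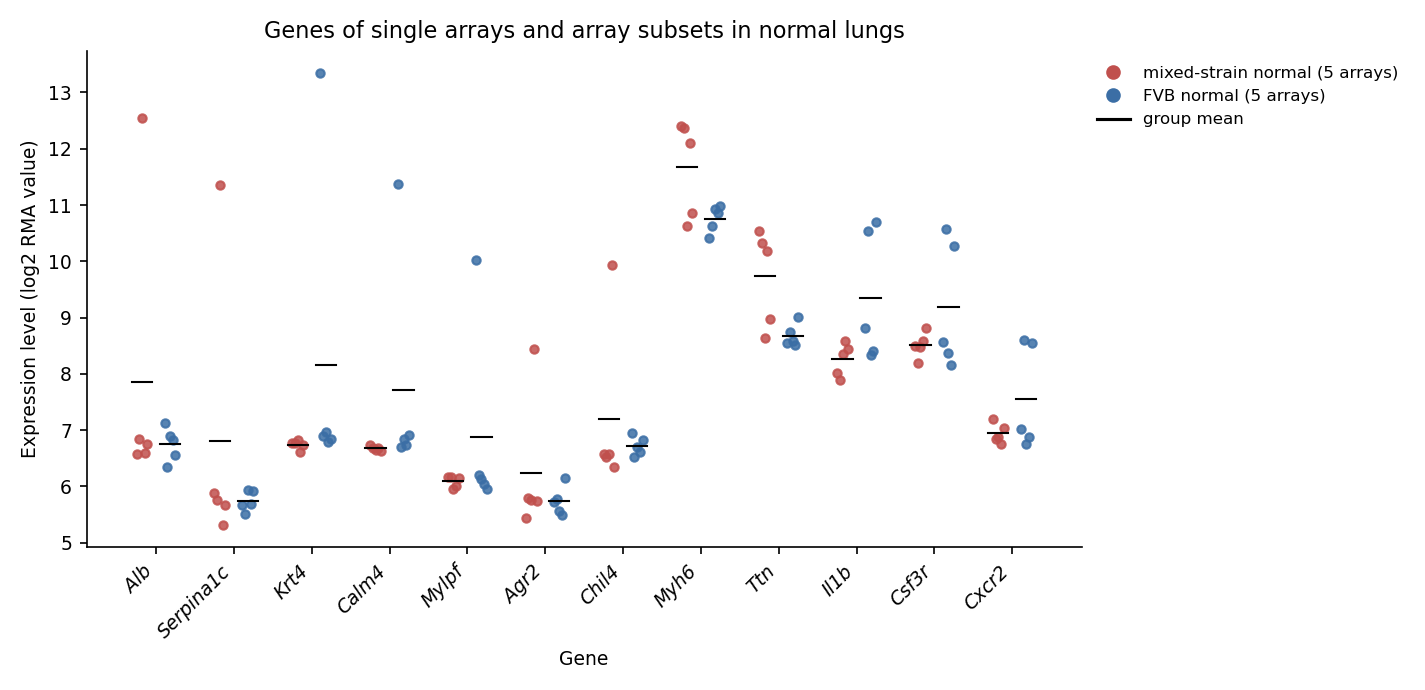
Levels (log2 RMA value) of liver (Alb, Serpina1c), squamous (Krt4, Calm4), skeletal muscle (Mylpf), mucous list (Agr2, Chil4), cardiac (Myh6, Ttn) and neutrophil genes (Il1b, Csf3r, Cxcr2) in 5 mixed-strain normals (red) and 5 FVB normals (blue), with group means as lines. Alb is high in mixed-strain 3 (12.54), Krt4 in FVB 1 (13.34), and the neutrophil genes in FVB 2 and 5.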

How the data were processed

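Values were used as the authors deposited them, as log2 RMA expression per probe set of an Affymetrix mouse array. RMA is named in the submitters' processing notes, with its version not given there. RMA puts the arrays on a shared scale, so levels are relative. The array medians of the deposited values were still not equal (7.29 to 7.31 in mixed-strain normals, 7.31 to 7.34 in FVB normals). Of 45101 probe sets, 34945 have 1 gene in the platform annotation, and 34741 of their symbols were updated through RefSeq. Each of 18193 genes is represented by its probe set with the highest mean over 24 arrays. Columns were matched to arrays by sample identifier, and 0 columns had no sample. The titles gave the group and replicate number.

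The 10 normal lungs were fitted with 2 group means (limma 3.58.1 in R 4.3.3, lmFit and eBayes with trend), and p-values were adjusted by Benjamini-Hochberg over all 18193 genes. The fit was also run on simulated data with independent noise for each gene and array. That run does not cover arrays that hold other tissue or shifts with level, so no conclusion is drawn from it. Calls required an adjusted p below 0.05. Tumours were fitted apart, and the difference between the contrasts over all arrays. Technical measures were compared by a two-sided exact permutation test. Arrays give no read depth, and their number limits the precision. The same replicate number in both sets was not taken to pair arrays. The array's genome build is not given in the sources used here, so only chromosomes and gene order were taken from RefSeq.

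Named genes were taken from the 15 highest and 15 lowest differences of called genes whose arrays did not overlap, and from called members of the lists. Members of the 3 longest stretches and uncalled list members given as examples were the other sources. Not every called list member or stretch member is named, and Ogn, Col15a1, Cxcl14 and Ly6d are among those left out. Members and lists were chosen with earlier results of these data known. Outside that rule, Cdkn1b, Rsl1, D17H6S56E-5, Ndufs5, Fgf1, Sema3f and the genes split within a set were chosen after their values were seen. Alternatives covered scaling, probe set choice, level filter, weights, trend, a sex score, thresholds, the replicate block, the spread of all arrays and arrays left out.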

Additional observations from a re-analysis of the deposited data

Results flagged for a closer look

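Single arrays stood apart from the other 4 of their set in 23 of 240 gene-by-set groups. Chance flags about 1 in 20 such groups. The genes include some chosen because 1 array stood apart, so the count cannot be compared with that rate. In mixed-strain 3 the liver genes Alb (12.54, next 6.84) and Serpina1c (11.36, next 5.89) were high. In FVB 1 the squamous genes Krt4 (13.34, next 6.96) and Calm4 (11.38, next 6.91) and the muscle gene Mylpf (10.03, next 6.21) were high, and Tapbp (11.10, next 11.37), a chaperone of MHC class I, was low. In mixed-strain 4 Agr2 (8.45, next 5.79), Chil4 (9.94, next 6.57) and Pi4k2b (11.00, next 10.50) were high.

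FVB 5 was low for Col1a1 (8.72, next 9.36), Col6a1 (10.63, next 10.90), Col6a2 (10.49, next 11.06) and Pdgfra (10.94, next 11.92), and high for H2-Aa (13.65, next 13.19). FVB 2 was low for Bhlhe40 (10.06, next 10.31). Mixed-strain 5 was low for H2-Eb1 (9, next 11.91) and high for Rsl1 (7.59, next 7.44), Clic5 (13.04, next 12.89) and Hbegf (9.80, next 9.59). Mixed-strain 2 was high for Il6ra (9.83, next 9.37), mixed-strain 1 for Pdgfrb (11.02, next 10.70) and FVB 3 for Bhlhe41 (6.60, next 6.45), and mixed-strain 3 was low for Spry1 (11.14, next 11.33).

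The difference in normal lungs minus that in tumours, L858R minus the others, passed the threshold for Zfp874a (1.34), Slc15a2 (-1.93) and Cd200r4 (-3.10), among genes named here. Outside the gene table, 1159 of 10092 probe sets with several genes or none (11.5%) were called between the normal sets, 263 higher and 896 lower in mixed-strain normals.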

How the results depend on the processing

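Of the 81 genes named with a call, 57 kept their call without any 1 array and 24 lost it without at least 1. Under the scalings no named gene reversed, while 1 lost its call after centring (2068 calls in all) and 10 after quantile normalization (1973 calls). With the spread of all 24 arrays 62 of the 81 lost it, among them Dbp (adjusted p = 0.171), Arntl (0.157), Nfil3 (0.238) and Mmp2 (0.17), and with the replicate block 34 did. Sema3f alone reversed, at 0.32 with the median over probe sets. With the spread of all 24 arrays there were 189 calls, 123 higher and 66 lower. In that fit the E-box list had 2, the ROR-element, fibroblast, matrix and alveolar type 1 lists 0 each, and 8 genes were shared with tumours. Testing every probe set gave 4734 calls (2836 higher, 1898 lower), an adjusted p under 0.01 gave 356 (276 and 80), and a 2-fold change gave 38 (31 and 7). At 0.01 the E-box list had 4, the matrix list 1 and the fibroblast and alveolar type 1 lists 0. At 2-fold the E-box list had 2, fibroblast and matrix 1 each, and ROR-element and alveolar type 1 lists 0. Without both arrays that stood apart, an alternative chosen after seeing the data, the fibroblast list had 4. Shared genes numbered 12 against L858R+T790M tumours alone and 14 against T790M tumours alone.

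With the replicate block there were 775 calls, 534 higher and 241 lower, with 2 each on the fibroblast, matrix and alveolar type 1 lists and 10 shared genes. Same-numbered arrays had correlations of 0.05, -0.12, -0.01, -0.06 and 0.10, so the numbers were not taken as pairs, and no array correlated best with its own number. Leaving out 1 array at a time gave 1148 to 2426 calls, 792 to 1415 higher and 356 to 1011 lower. The lists then had 5 to 8 (E-box), 2 to 4 (ROR element), 4 to 7 (fibroblast), 4 to 6 (matrix) and 2 to 6 (alveolar type 1), and 12 to 31 genes were shared. The cause of these changes was not tested.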

Other observations

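The counts of called members in other lists are read against 6.86% higher and 4.35% lower over all genes. Of 16 genes of ERK output, the feedback and target genes of the kinase cascade below EGFR, 4 were called higher, the Sprouty inhibitors Spry1 (0.45) and Spry4 (0.26), Etv5 (0.32) and Ier3 (0.48). The phosphatase gene Dusp6 (-0.31) and Fosl1 (-0.27) were called lower. Of these 6, only Spry1 kept its call in every fit that left out 1 array. Adjusted p reached 0.0871 for Spry4 (lost without mixed-strain 1, 2, 3 or 5 or FVB 1, 2, 3 or 5), 0.0672 for Etv5 (mixed-strain 4 or 5 or FVB 2, 3 or 4), 0.0820 for Ier3 (any mixed-strain array or FVB 4 or 5), 0.0783 for Dusp6 (mixed-strain 1, 3, 4 or 5 or FVB 1, 2 or 5) and 0.0926 for Fosl1 (all arrays but mixed-strain 1).

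Of 19 respiratory chain genes 3 were called higher and 0 lower, Sdha (0.25), Uqcrc1 (0.29) and Atp5b (0.21), the last lost without mixed-strain 1, 2 or 4 or FVB 2 or 5 (adjusted p up to 0.0655). Smooth muscle markers had 2 higher of 12, the receptor gene Pdgfrb (0.44) and the myosin gene Myh11 (0.54), which was lost without mixed-strain 1 or 4 or FVB 1, 3 or 4 (adjusted p up to 0.0628). Glutathione transferases, which conjugate reactive compounds, had 4 higher of 20 and 0 lower, and killer cell lectin-like receptors 3 lower of 18 and 0 higher. Ribosomal protein genes had 2 lower of 48, serpins 0 of 40 (5 at an unadjusted limma p under 0.05) and mitosis genes 1 lower of 22. The longest stretch on chromosome 1 held the basement membrane gene Col4a3 (0.99) and Irs1 (0.48), which relays insulin signals.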
